A study of Mus musculus with 16 samples.

Results

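The cyclins and cyclin-dependent kinases that carry a cell through division were measured by RNA-seq in mouse flexor tendon, in uninjured tendons and in tendons at 7 days post-injury (dpi). The 10 members were taken by gene symbol from a table of 49568 genes, and all 10 were in it. They were the D-type cyclins Ccnd1, Ccnd2 and Ccnd3, which act in G1, the E-type cyclins Ccne1 and Ccne2 with the kinase Cdk2, which act at the G1/S boundary, and Ccna2, Ccnb1, Ccnb2 and the kinase Cdk1, which act in S and G2/M. The libraries fell into 4 groups of 4: uninjured C57BL/6J (C57) tendon, C57 tendon at 7 dpi, uninjured MRL/MpJ (MRL) tendon and MRL tendon at 7 dpi. C57 is a common inbred laboratory strain, and MRL is an inbred strain known for healing several tissues with little scar. The mice were males of 9 to 11 weeks, and no engineered allele is named for either strain. The injury was a cut through about 50% of the width of the deep digital flexor tendon in digit 3 of the hind paw, made under ketamine and xylazine, with buprenorphine for pain. Each library came from the bulk tissue of 1 animal, so all cells of the dissected tendon contributed, and more dividing cells and more RNA per dividing cell could not be told apart. Injured libraries carry no replicate number in their labels and were numbered in accession order, and the p-values below cover the spread between these animals only.

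Progress through the cell cycle depends on kinases that are inactive until a cyclin binds them. D-type cyclins respond to growth signals and pair with Cdk4 and Cdk6, cyclin E with Cdk2 starts DNA replication, and cyclin A and cyclin B with Cdk2 and Cdk1 carry the cell through S phase into mitosis. Transcripts of the A- and B-type cyclins and Cdk1 are made mainly in dividing cells, whereas D-type cyclins and Cdk2 are also transcribed outside division. Adult tendon fibroblasts divide rarely, and injury brings proliferating fibroblasts and immune cells to the wound.

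Library totals ran from 12552424 to 23741648 counts, and the injured MRL libraries were the deepest, with a median of 23460742 against 14504137 to 15107676 in the other groups. A count of 3, taken as the floor, stood for 0.126 to 0.241 CPM, which are counts scaled to a fixed library size. Tendon markers were abundant, and 10 genes such as Scx, Tnmd and Col1a1 took 3.34% to 10.8% of the counts in every library. The library labelled C57 uninjured replicate 4 stood apart. In it 9.41% of counts fell on 12 epidermal markers, led by keratins, against at most 0.0802% in any other library, and its Spearman correlation with the rest of its group, taken across genes, was 0.80 to 0.83, whereas each of the other 3 reached 0.95 to 0.97 with a library of its group. The library labelled MRL uninjured replicate 4 reached 0.94 with its own group and 0.96 with uninjured C57, and without it 8 members still passed in MRL, with a log2 fold change of 3.24 in place of 3.57 for Ccnd1. In C57 injured replicate 1, 12 skeletal muscle markers took 6.07% of counts. By the test and criteria used for the members, 4 of 10 macrophage markers were higher after injury in C57, where 0.908% of all genes tested were, and 5 in MRL, where 5.25% were, and the 1 T cell marker high enough to test was higher in MRL. Of 10 tendon markers 0 and 2 were higher after injury in C57 and MRL, of the skeletal muscle markers tested 0 of 6 and 1 of 4, and 0 of the epidermal, endothelial or neutrophil markers tested. The part of these cell types in the results below was not tested. No label gives a batch or date. A batch shared by the injured libraries could therefore not be told apart from injury, nor one shared by a strain's libraries from strain.

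Injury in MRL tendon was followed by a rise of members from every phase. With edgeR's quasi-likelihood test, 8 of the 10 members were higher in the injured MRL tendons with an adjusted p-value under 0.05 and a log2 fold change above 1 in size, where 5.25% of the 14274 genes tested were higher by these criteria. All 4 S and G2/M members passed, as did Ccne1, Ccne2, Ccnd1 and Ccnd2. Ccnd3 and Cdk2 did not pass. In 9 of the 10, all but Cdk2, every injured library was above every uninjured one, which was so for 13.5% of the genes tested. The median log2 fold change of the members was 4.48, and that of all genes tested was -0.03.

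Apart from Ccne1, whose fold rests on 3 counts, the S and G2/M members rose most. Cdk1, the kinase that drives entry into mitosis, lies on chromosome 10 from 69335146 to 69352938 on the minus strand. It was at 0.663, 0.937, 0.358 and 0.402 CPM in uninjured MRL replicates 1 to 4. In the injured MRL replicates 1 to 4 it was at 74.4, 72.1, 36.2 and 187 CPM. The groups were far apart, and injured replicate 4 was the highest library. The log2 fold change was 7.29 (SE 0.60, adjusted p = 0.000785, edgeR's quasi-likelihood test), which ranked Cdk1 at place 3 among all genes by p-value.

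Ccna2, the cyclin of S phase and early G2, lies on chromosome 3 from 36564865 to 36572150 on the minus strand. Its uninjured MRL libraries had 0.398, 2.24, 1.37 and 3.86 CPM, and its injured MRL libraries 96.0, 73.1, 34.5 and 120 CPM. Injured replicate 3 was the lowest of the injured libraries for Ccna2, as for Cdk1. The log2 fold change of Ccna2 was 5.39 (SE 0.61, adjusted p = 0.00120, edgeR's quasi-likelihood test).

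The B-type cyclins, which bind Cdk1 and are destroyed as mitosis ends, behaved alike. Ccnb1, on chromosome 13 from 100778650 to 100786570 on the minus strand, went from 0, 1.80, 1.31 and 0.402 CPM to 73.4, 50.1, 26.3 and 84.1 CPM (log2 fold change 6.04, SE 0.76). Ccnb2, on chromosome 9 from 70407692 to 70421547 on the minus strand, went from 1.19, 2.24, 0.358 and 0 CPM to 107, 67.4, 31.6 and 87.2 CPM (log2 fold change 6.27, SE 0.77). Adjusted p-values were 0.00184 and 0.00172 with edgeR's quasi-likelihood test. The summed counts of the uninjured MRL group were only 34 for Cdk1, 52 for Ccnb1, 55 for Ccnb2 and 108 for Ccna2, so the size of these folds rests on few reads, whereas their direction held in every library.

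Promoters of 3 of the S and G2/M members are shown here for the letters of known cell cycle elements, beside that of Cdk2, which did not pass. RefSeq promoters of GRCm38.p6, given here from 250 bases before to 30 bases after the annotated start, were at hand for 6 of the 10 members. Capitals mark 3 kinds of element, searched on both strands: the cell cycle genes homology region (CHR; TTTGAA or TTCGAA), the CCAAT box (CCAAT) and the E2F site (TTTCGCGC or TTTGGCGC). The elements as written share no letters. The windows below are on the minus strand, printed 5′ to 3′, at chr10:69352883-69353162 for Cdk1, chr9:70421525-70421804 for Ccnb2, chr13:100786457-100786736 for Ccnb1, and, for Cdk2, chr10:128705022-128705301.
Cdk1: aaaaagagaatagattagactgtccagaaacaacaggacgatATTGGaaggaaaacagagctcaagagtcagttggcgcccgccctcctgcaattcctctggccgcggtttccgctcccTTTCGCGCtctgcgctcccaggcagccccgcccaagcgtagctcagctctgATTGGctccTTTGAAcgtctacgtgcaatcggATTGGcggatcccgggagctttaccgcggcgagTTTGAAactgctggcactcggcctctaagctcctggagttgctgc
Ccnb2: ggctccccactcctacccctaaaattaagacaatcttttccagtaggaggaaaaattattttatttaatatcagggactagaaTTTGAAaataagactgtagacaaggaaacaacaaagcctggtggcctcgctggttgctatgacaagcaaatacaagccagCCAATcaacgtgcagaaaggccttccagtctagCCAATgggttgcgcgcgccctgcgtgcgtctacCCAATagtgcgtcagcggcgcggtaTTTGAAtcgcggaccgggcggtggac
Ccnb1: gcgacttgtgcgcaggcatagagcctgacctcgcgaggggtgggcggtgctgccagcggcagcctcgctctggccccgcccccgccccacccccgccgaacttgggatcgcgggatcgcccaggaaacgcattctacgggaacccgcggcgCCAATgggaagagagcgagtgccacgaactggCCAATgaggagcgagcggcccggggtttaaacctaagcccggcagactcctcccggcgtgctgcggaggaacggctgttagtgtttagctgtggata
Cdk2: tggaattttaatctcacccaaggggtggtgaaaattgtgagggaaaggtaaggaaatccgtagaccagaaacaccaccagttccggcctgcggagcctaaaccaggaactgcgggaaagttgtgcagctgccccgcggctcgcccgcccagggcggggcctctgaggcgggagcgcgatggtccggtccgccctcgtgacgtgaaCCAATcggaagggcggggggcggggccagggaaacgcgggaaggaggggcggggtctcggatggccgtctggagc

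The Cdk1 window held 2 CHR elements, starting at bases -71 and -15 from the start, with 3 CCAAT boxes at -208, -80 and -48 in the reverse orientation (ATTGG) and 1 E2F site at -131. The Ccnb2 window held 2 CHR elements, at -167 and 5, and 3 CCAAT boxes, at -87, -54 and -21. In the Ccnb1 window there were 2 CCAAT boxes, at -99 and -67, and none of the CHR or E2F letters listed above. Other variants of these elements were not searched. The Cdk2 window held 1 CCAAT box, at -45. The window of Ccne1, a member that rose, held 0 of the 3 elements, and those of Ccnd3, which has 2 annotated starts, held 0 and 1 CCAAT box. Of 32851 mouse promoters of the same length, 18.4% held at least 1 CHR element, 36.1% at least 1 and 11.1% at least 2 CCAAT boxes, and 0.752% an E2F site. Both a CHR element and at least 2 CCAAT boxes were in 2.08% of them. These are matches of letters, and no binding was measured.

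Of the G1/S members, both E-type cyclins rose in MRL and their kinase did not pass. Ccne1, on chromosome 7 from 38097984 to 38107534 on the minus strand, had 3 counts in uninjured MRL replicate 1 and 0 in the other 3. Its injured MRL libraries had 3.82, 20.8, 6.26 and 32.4 CPM. The ratio of the pooled CPM was 285, with a 95% counting interval of 97.4 to 1385, and the adjusted p was 0.00284 with edgeR's quasi-likelihood test. Ccne2, on chromosome 4 from 11191351 to 11204779 on the plus strand, was already detected before injury. Its uninjured MRL libraries had 5.63, 2.09, 4.48 and 4.18 CPM and its injured ones 18.9, 33.3, 17.4 and 39.9 CPM (log2 fold change 2.75, SE 0.40, adjusted p = 0.00325, edgeR's quasi-likelihood test).

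Cdk2, on chromosome 10 from 128697939 to 128705031 on the minus strand, had 35.9, 21.1, 29.0 and 26.2 CPM in uninjured and 27.2, 38.5, 47.3 and 55.7 CPM in injured MRL tendon. The groups overlapped, because injured replicate 1 lay below uninjured replicates 1 and 3. The log2 fold change was 0.60 (SE 0.25, adjusted p = 0.153, edgeR's quasi-likelihood test).

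The D-type cyclins differed among themselves. Ccnd1, on chromosome 7 from 144929931 to 144939925 on the minus strand, had 5.83, 10.8, 8.18 and 1.29 CPM in uninjured and 110.2, 86.7, 34.8 and 79.0 CPM in injured MRL tendon. Its log2 fold change was 3.57 (SE 0.55, adjusted p = 0.00416, edgeR's quasi-likelihood test), below those of the S and G2/M members. Ccnd2, on chromosome 6 from 127125162 to 127152193 on the minus strand, went from 45.9, 56.9, 79.8 and 59.8 CPM to 110.2, 221, 130 and 178 CPM. Its log2 fold change was 1.40 (SE 0.24, adjusted p = 0.00674, edgeR's quasi-likelihood test). Ccnd3, on chromosome 17 from 47505051 to 47599691 on the plus strand, had 70.6, 71.2, 64.2 and 85.7 CPM before and 94.7, 111, 116 and 88.9 CPM after injury. These did not overlap, but the log2 fold change of Ccnd3 was 0.50 (SE 0.15) and its adjusted p 0.0597 with edgeR's quasi-likelihood test, so it passed neither criterion.

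**Figure D1:**
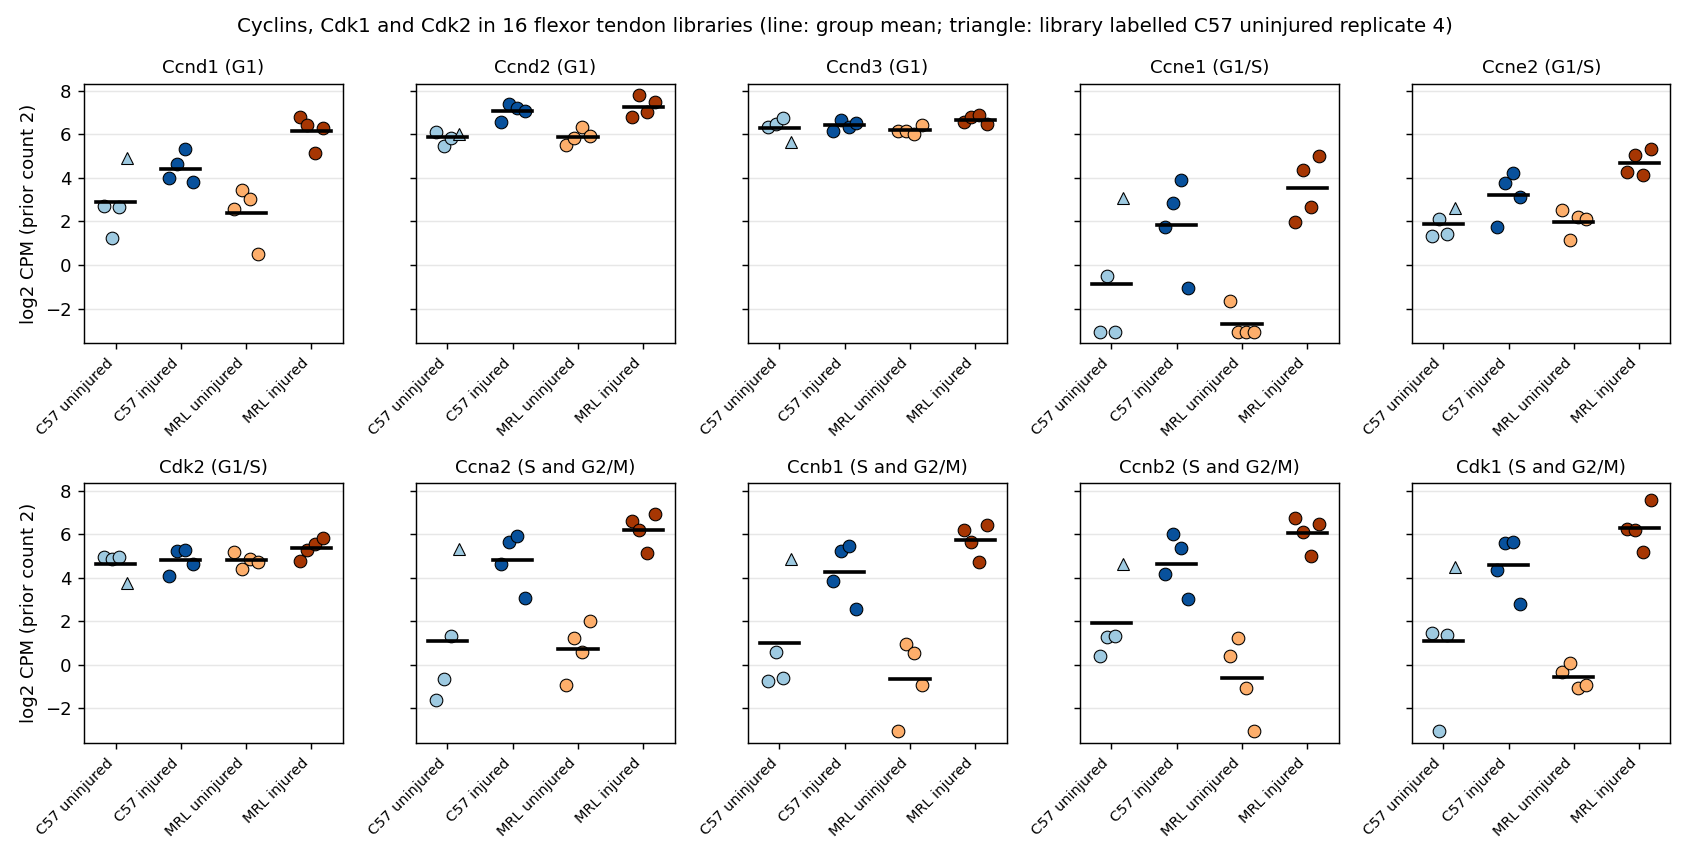
Level of each member as log2 CPM (prior count of 2, vertical axis) in the 4 libraries of each group, with 1 point per library, a line at the group mean and a triangle for the library labelled C57 uninjured replicate 4. Ccna2, Ccnb1, Ccnb2 and Cdk1 were low in 7 of the 8 uninjured libraries and high in the injured ones, whereas Ccnd3 and Cdk2 showed no such split, with Cdk2 between 3.76 and 5.80.

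In C57 tendon, 1 of the 10 members passed the same criteria, where 0.908% of the 14424 genes tested were higher after injury. It was Ccnd2, at 69.3, 44.7, 57.5 and 64.9 CPM in uninjured and 94.3, 167, 150.2 and 137 CPM in injured C57 tendon. Every injured library was above every uninjured one, as for 7.42% of the genes tested, and no other member showed this. The log2 fold change of Ccnd2 was 1.16 (SE 0.22, adjusted p = 0.0467, edgeR's quasi-likelihood test). The call lay close to the threshold. Leaving out 1 library ended it in 6 of 8 fits, with log2 fold changes of 1.04 to 1.32 throughout. It held without C57 uninjured replicate 4 or C57 injured replicate 1, and not without any of the other 6 libraries.

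The S and G2/M members had estimates of 1.60 to 2.10 in C57, with adjusted p-values of 0.398 to 0.638 in edgeR's quasi-likelihood test. Ccna2 was at 0.201, 0.518 and 2.39 CPM in uninjured C57 replicates 1 to 3 and at 40.2 CPM in the library labelled replicate 4. In the injured C57 libraries it was at 24.6, 49.2, 59.5 and 8.16 CPM. Replicate 4 of the uninjured group therefore lay within the injured range, and injured replicate 4 was the lowest injured library.

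Ccnb1, Ccnb2 and Cdk1 shared the highest uninjured and the lowest injured library with Ccna2. Cdk1 was at 2.62, 0 and 2.47 CPM in uninjured C57 replicates 1 to 3, at 22.7 CPM in replicate 4, and at 20.5, 48.8, 49.8 and 6.74 CPM in the injured ones. Ccnb1 was at 0.470 to 1.36 CPM in uninjured replicates 1 to 3 and at 28.9 CPM in replicate 4, against 5.82 to 43.3 CPM after injury. Ccnb2 was at 1.21 to 2.39 CPM and 24.9 CPM, against 7.95 to 63.3 CPM after injury. Each of these members was thus many times higher in the library with the epidermal markers than in the rest of its group.

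The same library was highest of its group for Ccnd1 and both E-type cyclins. Ccnd1 was at 6.45, 2.27, 6.17 and 30.4 CPM in uninjured and at 15.7, 24.5, 40.0 and 13.8 CPM in injured C57 tendon (log2 fold change 0.98, SE 0.74, adjusted p = 0.573, edgeR's quasi-likelihood test). Ccne1 was at 0, 0.583, 0 and 8.43 CPM in uninjured and at 3.24, 7.15, 14.8 and 0.355 CPM in injured C57 tendon. Ccne2 was at 2.42 to 6.00 CPM before and 3.24 to 18.7 CPM after injury. For all of these the groups overlapped.

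Ccnd3 and Cdk2 were lowest, not highest, in that library. Ccnd3 was at 81.1, 89.0, 107 and 50.5 CPM in uninjured and 71.7, 100.1, 80.7 and 91.4 CPM in injured C57 tendon. Its log2 fold change was 0.03 (SE 0.23). Cdk2 was at 31.0, 28.6, 31.2 and 13.4 CPM in uninjured and 16.6, 37.8, 37.9 and 24.7 CPM in injured C57 tendon, with a log2 fold change of 0.12 (SE 0.34). Neither moved beyond its spread.

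Without the library labelled C57 uninjured replicate 4, 5 of the 10 members passed in C57: Ccnd1, Ccnd2, Ccna2, Ccnb1 and Ccnb2. In that fit 3.5% of 14983 genes were higher after injury. Ccna2 then had a log2 fold change of 5.07 (SE 1.02, adjusted p = 0.0308), Ccnb1 of 4.93 (SE 0.81, adjusted p = 0.0121) and Ccnb2 of 4.01 (SE 0.73, adjusted p = 0.0175), all in edgeR's quasi-likelihood test. Ccnd1 was at 2.20 (SE 0.50, adjusted p = 0.0346). Cdk1 was at 4.18 (SE 1.21, adjusted p = 0.102) and did not pass, although none of its injured libraries reached down to the 3 uninjured ones. In all, 6 members did not overlap, against 11.6% of the genes tested. DESeq2 called 8 of the 10 on the same 7 libraries, all but Ccnd3 and Cdk2, where it called 6.53% of genes higher. On all 8 libraries it called 1 of the 10 and 4.17% of genes.

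**Figure D2:**
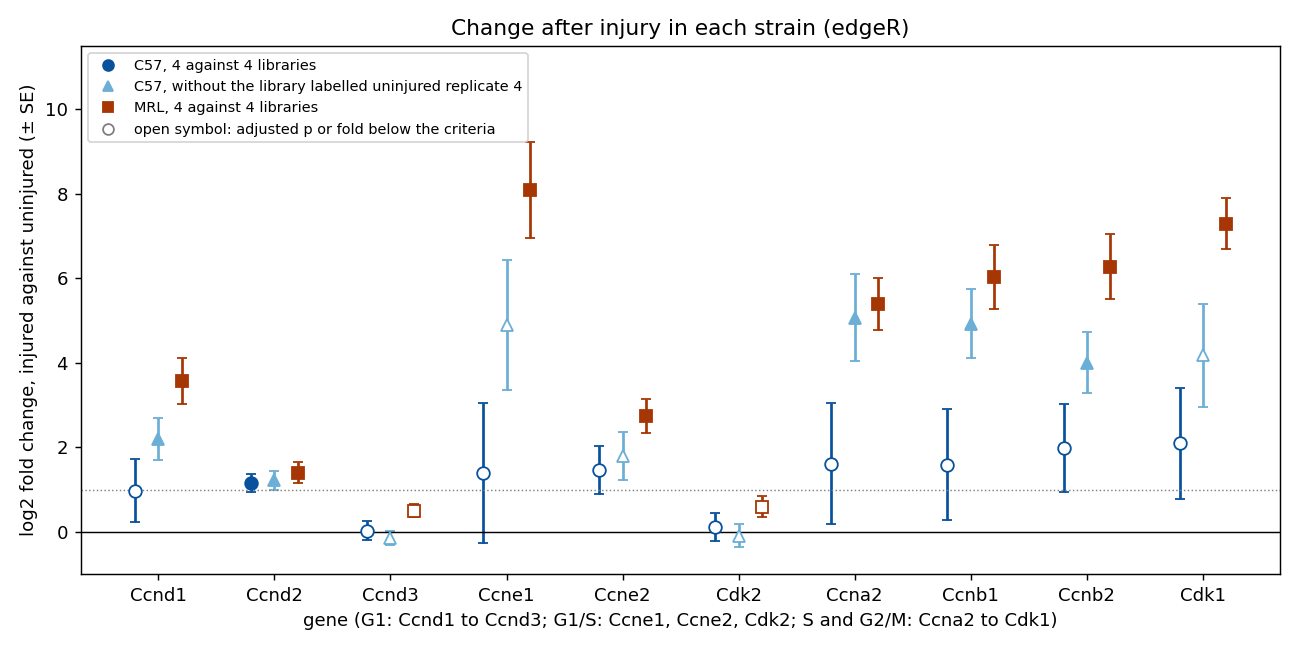
Log2 fold change of each member, injured against uninjured, with its SE, in C57 (circles), in C57 without the library labelled uninjured replicate 4 (triangles) and in MRL (squares), where open symbols did not pass the criteria and the dotted line marks a log2 fold change of 1. Leaving out that library moved Ccna2 in C57 from 1.62 to 5.07, near its MRL value of 5.39, and moved Ccnd2 only from 1.16 to 1.22. Ccnb1, Ccnb2 and Cdk1 moved to 4.93, 4.01 and 4.18, further below their MRL values of 6.04, 6.27 and 7.29. The fitted value of Ccne1 in MRL rests on 3 counts before injury and depends on the prior count.

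Whether the strains differed in their response to injury was tested as an interaction over all 16 libraries. At an adjusted p-value under 0.05, 0 of the 10 members were called, as were 0 of 15947 genes (0%) with edgeR's quasi-likelihood test. At an unadjusted p-value under 0.05 there were 6 members, against 12.2% of all genes, and DESeq2 called 0 members and 1.15% of genes. The response was larger in MRL in the estimate for each member, from 0.19 on the log2 scale for Ccnd2 to 5.13 for Cdk1, leaving aside Ccne1, whose fit rests on 3 counts in uninjured MRL. The intervals were wide. For Cdk1 the difference was 5.13 with a 95% interval of 1.73 to 8.52 (adjusted p = 0.333), for Ccna2 3.70 with 0.02 to 7.38 (adjusted p = 0.410), and for Ccnd1 2.54 with 0.42 to 4.65 (adjusted p = 0.355), all from edgeR's quasi-likelihood test.

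For 8 members these differences shrank without the library labelled C57 uninjured replicate 4. That of Ccna2 became 0.25 (SE 1.15), that of Ccnb1 1.06 (SE 1.16), that of Ccnb2 2.21 (SE 1.10), that of Cdk1 3.05 (SE 1.24) and that of Ccnd1 1.32 (SE 0.78). Ccnd3 went the other way, from 0.42 (SE 0.28) to 0.59 (SE 0.22), and so did Cdk2, from 0.42 to 0.63. Again 0 members and 0 genes were called, at adjusted p-values of 0.396 to 0.974 for the members in edgeR's quasi-likelihood test. A strain difference in the injury response of the S and G2/M members was therefore not detectable with these libraries, and its estimate depended on 1 of them.

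Injured MRL and injured C57 tendons were also compared directly, a contrast that does not use the uninjured libraries. Library totals did not overlap, at 12883569 to 16579900 counts in injured C57 and 18524170 to 23741648 in injured MRL. A batch that differed between these groups could not be told apart from strain. The summed level of 10 macrophage markers was 1676 to 2871 CPM in injured C57 and 782 to 1565 CPM in injured MRL, that of 6 endothelial markers 92.4 to 146 and 0.924 to 24.4 CPM, and that of 10 tendon markers 33654 to 62431 and 71704 to 115944 CPM, so the strains did not overlap in these. Of these markers 4 macrophage and 1 endothelial marker were lower in injured MRL by the test and criteria used for the members, beside 1.88% of all genes, and 1 tendon marker was higher. No macrophage or tendon marker was at 0 in any injured library, and up to 4 endothelial markers were in injured MRL. The part of these cell types in the strain contrast was not tested. Of the 10 members 1 was called, Ccnd1, where 1.55% of the 14626 genes tested were higher in injured MRL. The injured C57 libraries had 15.7, 24.5, 40.0 and 13.8 CPM of Ccnd1 and the injured MRL libraries 110.2, 86.7, 34.8 and 79.0 CPM. Of the MRL libraries 3 were above every C57 library, and MRL replicate 3 lay below C57 replicate 3. The log2 fold change was 1.70 (SE 0.40, adjusted p = 0.0480, edgeR's quasi-likelihood test). Leaving out 1 library ended the call in 6 of 8 fits, all but those without C57 injured replicate 3 or MRL injured replicate 3, with log2 fold changes of 1.51 to 2.06.

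The other 9 members were higher in injured MRL in their estimates, by 0.19 to 1.52 on the log2 scale, and none passed. Cdk1 had the highest of these (1.52, 95% interval 0.10 to 2.95, adjusted p = 0.208), and Ccna2, Ccnb1 and Ccnb2 lay between 1.15 and 1.18 (adjusted p = 0.255 to 0.281, edgeR's quasi-likelihood test). For Ccnd2 the difference was 0.19 with an interval of -0.36 to 0.74, and for Ccnd3 0.23 with an interval of -0.15 to 0.60. The groups overlapped for all 10 members, whereas 8.27% of genes were higher in MRL with no overlap.

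Before injury no member passed the test between the strains. The summed tendon markers did not overlap here either, at 38014 to 65669 CPM in C57 and 66700 to 97176 CPM in MRL. Ccne1 was too low to be tested, and 0 of the other 9 members passed, as did 0 of 14055 genes (0% in either direction) with edgeR's quasi-likelihood test. At an unadjusted p-value under 0.05 there were 2 members, Cdk1 and Ccnb2, against 7.87% of all genes. DESeq2 gave no adjusted p for Ccne1, Ccna2, Ccnb1 and Ccnb2, so it could not call them. It called 0 of the remaining members, with 0.405% of genes higher and 0.243% lower in MRL. Ccnd2 was at 59.1 ± 10.8 CPM in C57 and 60.6 ± 14.1 CPM in MRL (SD, n = 4), Ccnd3 at 82.0 ± 23.7 and 72.9 ± 9.08 CPM, and Cdk2 at 26.1 ± 8.53 and 28.0 ± 6.20 CPM. The 4 S and G2/M members had log2 differences of -3.62 to -2.55 (adjusted p = 0.621 to 0.691, edgeR's quasi-likelihood test). Without the library labelled C57 uninjured replicate 4 the differences of Ccna2 and Ccnb1 turned to 0.91 and 0.14, MRL higher, and those of Ccnb2 and Cdk1 shrank from -3.09 to -1.05 and from -3.62 to -1.52.

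The S and G2/M members were then set against the G1 members library by library, as the mean log2 CPM of Ccna2, Ccnb1, Ccnb2 and Cdk1 minus that of Ccnd1, Ccnd2 and Ccnd3. This difference shifts with transcript length and is meaningful only between libraries. It was -5.10 ± 0.63 in uninjured and -0.63 ± 0.64 in injured MRL tendon (SD, n = 4). In C57 it was -3.75 ± 2.07 in uninjured tendon, -4.76 ± 0.49 without the library labelled replicate 4 (SD, n = 3), and -1.40 ± 1.08 in injured tendon (SD, n = 4). The odd uninjured library was at -0.70, inside the injured range of -2.95 to -0.60. Injured C57 replicate 4 was at -2.95, the lowest injured library in either strain, and still above the 7 other uninjured libraries, whose highest value was -4.23. G1 means rose less than S and G2/M means: in MRL from 4.82 ± 0.41 to 6.70 ± 0.28 against -0.28 ± 0.83 to 6.07 ± 0.78 log2 CPM (SD, n = 4). The G1/S mean of Ccne1, Ccne2 and Cdk2 went from 1.36 ± 0.49 to 4.52 ± 0.77 log2 CPM (SD, n = 4). No test was made on these means.

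**Figure D3:**
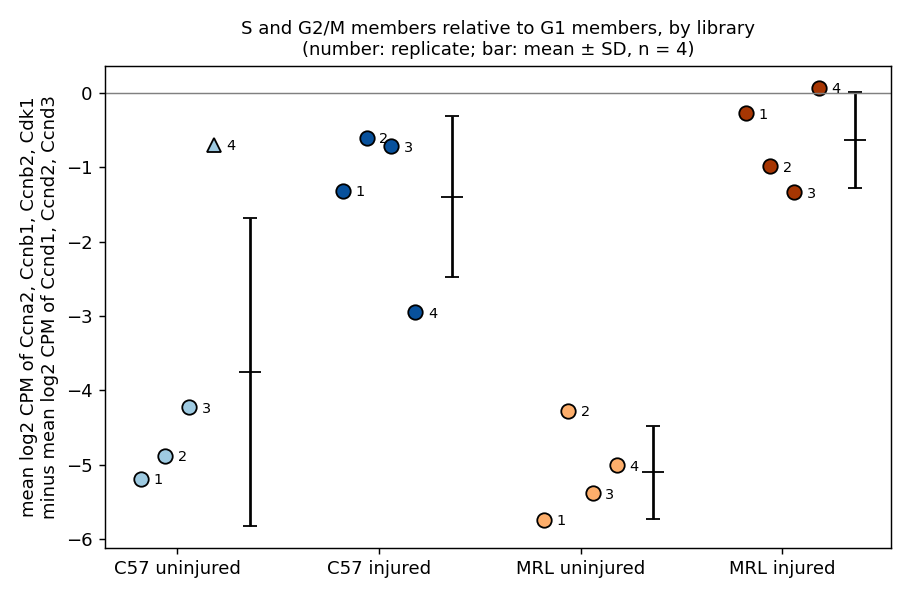
Mean log2 CPM of the 4 S and G2/M members minus that of the 3 G1 members (vertical axis, log2 units) in each library, numbered by replicate, with the mean ± SD of each group of 4. The uninjured MRL libraries lay between -5.74 and -4.27 and the injured ones between -1.33 and 0.07, and C57 uninjured replicate 4, the triangle, lay at -0.70 among the injured libraries.

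Within the injured tendons the ratios between S and G2/M members varied less than their levels. Over the 8 injured libraries of both strains, the SD of their log2 CPM was 1.24 to 1.41. The SD of the log2 ratio to Ccna2 was 0.12 for Ccnb1, 0.32 for Ccnb2 and 0.32 for Cdk1, and the CPM ratios to Ccna2 ran from 0.588 to 0.765 for Ccnb1, from 0.682 to 1.29 for Ccnb2 and from 0.775 to 1.57 for Cdk1. Over all 16 libraries, which the injury itself spreads apart, the Pearson correlation of log2 CPM between pairs of the 4 was 0.85 to 0.94. With Ccnd1 it was 0.84 to 0.92, with Ccne1 0.86 to 0.90, with Ccne2 0.76 to 0.79 and with Ccnd2 0.75 to 0.84. With Ccnd3 it was 0.22 to 0.29 and with Cdk2 0.14 to 0.27.

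**Figure D4:**
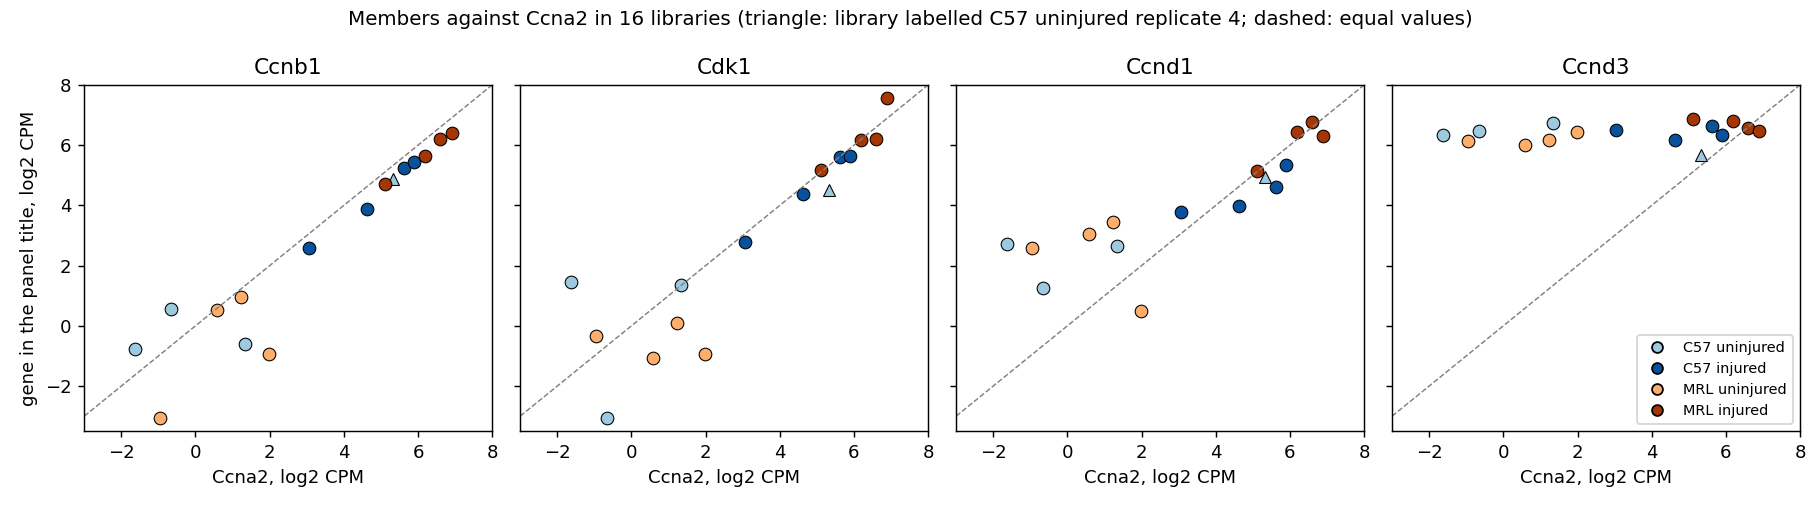
Level of Ccnb1, Cdk1, Ccnd1 and Ccnd3 (vertical axes, log2 CPM) against that of Ccna2 (horizontal axes, log2 CPM) in the 16 libraries, coloured by group, with a dashed line at equal values and a triangle for the library labelled C57 uninjured replicate 4. In the injured libraries of both strains Ccnb1 ran just below the line, at 0.588 to 0.765 of Ccna2 in CPM, and Cdk1 ran on either side of it. Ccnd3 stayed between 5.66 and 6.87.

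The genes whose log2 CPM followed the mean of Ccna2, Ccnb1, Ccnb2 and Cdk1 most closely over the 16 libraries were Prc1, Depdc1a, Hmmr, Birc5 and Cenpf, with Pearson correlations of 0.97 to 0.99. Prc1 encodes a crosslinker of the midzone of the spindle, Birc5 the survivin subunit of the chromosomal passenger complex, and Cenpf a kinetochore protein. For Ccnd1 they were H2-DMb2, Fam64a, Plk1, Il1rl1 and Ptgr1, at 0.94 to 0.95. Plk1 is a mitotic kinase, whereas H2-DMb2 belongs to the class II antigen presentation machinery and Il1rl1 is the receptor of interleukin 33. The libraries of a group share injury and strain, so these are descriptions.

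For levels between genes, CPM was divided by the length of the joined exons, as CPM per kb. In uninjured MRL tendon Ccnd3 was highest (8.31 ± 1.04 CPM per kb), followed by Ccnd2 (6.44 ± 1.50) and Cdk2 (4.51 ± 1.00), whose neighbouring ranges overlapped. A gap separated Cdk2 from Ccnd1 (1.39 ± 0.86), and Ccne1 was lowest (0.0187 ± 0.0373; all SD, n = 4). After injury the order in MRL was led by Ccnb2 (48.0 ± 21.1 CPM per kb), Ccna2 (19.8 ± 8.87), Cdk1 (18.7 ± 13.3), Ccnd2 (17.0 ± 5.28) and Ccnd1 (16.5 ± 6.69). Ccnb1 (13.9 ± 6.10), Ccnd3 (11.7 ± 1.50), Ccne2 (7.84 ± 3.15), Cdk2 (6.78 ± 1.96) and Ccne1 (5.94 ± 5.02) followed, and every pair of neighbours in this order overlapped. In injured C57 tendon Ccnb2 was also highest (21.2 ± 16.2 CPM per kb), followed by Ccnd2 (14.5 ± 3.29), Ccnd3 (9.80 ± 1.41), Ccna2 (8.66 ± 5.70) and Cdk1 (6.37 ± 4.33). In uninjured C57 tendon Ccnd3 (9.34 ± 2.70) and Ccnd2 (6.28 ± 1.14) led, as in MRL. In both C57 groups, too, every pair of neighbours in the order overlapped.

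The rest of the machinery was counted by list, and the counts in MRL are to be read against the 5.25% of all genes tested that were higher and the 2.15% that were lower after injury. The median log2 fold changes in MRL were 1.98 for proliferation markers, 0.88 for activators and subunits, 0.55 for inhibitors, 0.34 for transcription factors, 0.27 for turnover genes, 0.10 for other CDKs and 0.0011 for other cyclins, beside -0.03 for all genes tested. In C57 the medians ran from -0.32 for inhibitors to 0.32 for proliferation markers, beside -0.05 for all genes. Of the other CDKs, 1 of 16 tested was higher in injured MRL tendon, Cdk6, at 3.84 ± 1.81 CPM before and 33.6 ± 12.2 CPM after injury (SD, n = 4; log2 fold change 3.14, SE 0.46, adjusted p = 0.00332, edgeR's quasi-likelihood test). Cdk4, the other partner of the D-type cyclins, went from 87.9 ± 16.2 to 155 ± 24.6 CPM, and its log2 fold change of 0.83 (adjusted p = 0.0172) was under the fold criterion. Of the other cyclins, 1 of 12 tested was higher, Ccnf, an F-box cyclin of G2 (log2 fold change 3.17, adjusted p = 0.0108). Beside 5.25% of all genes, 1 member of each of these lists is near the background. In C57, where 0.908% of all genes tested were higher, no gene of these lists passed. Cdk6 passed without the library labelled uninjured replicate 4 (log2 fold change 2.03, adjusted p = 0.0200, edgeR's quasi-likelihood test), where 3.5% of genes were higher.

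Of 6 activators and subunits of the complexes, 3 were higher in injured MRL tendon: Cks2 (log2 fold change 3.36) and Cks1b (1.75), small proteins that dock substrates on the kinases, and Cdc25c (5.30), a phosphatase that activates Cdk1. Of 8 inhibitors tested, 0 were higher and 2 were lower, Cdkn1c (-1.58, adjusted p = 0.0211) and Cdkn1b (-1.13, adjusted p = 0.0434), both CDK inhibitors of the Cip/Kip family. Here 2.15% of all genes were lower in MRL by these criteria. Cdkn2d, another CDK inhibitor, went the other way, with a log2 fold change of 0.93 (adjusted p = 0.0191) that was under the fold criterion. Of 21 genes of cyclin turnover, 2 were higher, beside 5.25% of all genes. They were Ube2c (6.56) and Cdc20 (3.18), which act with the anaphase-promoting complex in destroying B-type cyclins, and 1 gene was lower, Fbxo31 (-1.21), an F-box protein. All adjusted p-values in these lists came from edgeR's quasi-likelihood test.

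Of 11 proliferation markers 8 were higher in injured MRL tendon, among them Mki67 at 1.57 ± 0.96 CPM before and 78.8 ± 30.4 CPM after injury (log2 fold change 5.68, SE 0.60, adjusted p = 0.00106, edgeR's quasi-likelihood test). Pcna, the DNA polymerase clamp, went from 35.8 ± 8.52 to 71.5 ± 32.3 CPM (SD, n = 4), and missed the threshold (log2 fold change 1.01, SE 0.30, adjusted p = 0.0558). Of 20 transcription factors of the G1/S and G2/M genes 6 were higher: E2f1 (log2 fold change 1.85), Tfdp1 (1.02), Foxm1 (3.63), Mybl2 (2.48), E2f7 and E2f8. Foxm1 and Mybl2 encode factors that switch on G2/M genes. E2f7 and E2f8, which encode repressors of the E2F family, had 0 counts in the uninjured MRL libraries and 4.78 ± 1.27 and 4.20 ± 2.30 CPM in the injured ones (SD, n = 4). In C57, 0 genes of any of the 7 lists passed with all 8 libraries. Of all 14424 genes tested there, 0.908% were higher and 24 genes were lower, so few calls were to be had in lists of this size. Without the library labelled uninjured replicate 4, 3 proliferation markers (Mki67, Rrm2 and Top2a), 3 transcription factors (E2f1, E2f2 and E2f8), Cdc25c, Ube2c and Cdk6 were higher, as were 3.5% of all genes, and the inhibitory kinase Wee1 was lower (-1.42, adjusted p = 0.0332, edgeR's quasi-likelihood test), as were 1.51% of genes. E2f2 and Wee1 were named after their values were seen.

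Reads of neighbouring genes could enter some of these counts, because the strand setting of the counting was not stated. Exons of Ccnd1 overlap those of Oraov1 (now LTO1) on the other strand over 23.4% of their length, those of Ccne2 overlap Ints8 over 17.4% and those of Ccna2 overlap Exosc9 over 12.5%. No neighbour passed the test in MRL. There the log2 fold change was -0.10 (SE 0.30) for Oraov1, 0.17 (SE 0.21) for Ints8 and 0.36 (SE 0.19) for Exosc9, and Oraov1 differed by 0.02 (SE 0.28) between the injured strains. Of 100-base stretches of Ccnb1 transcripts, 14.9% also occur in annotated gene copies. Most of these lie in Ccnb1-ps (11.2% of the stretches). Neither it nor Gm8416 is among the 49568 genes counted under these names, so the count of Ccnb1 is uncertain to that extent. The other copies, Gm12856 and Gm4870, had at most 1 count in any library.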

How the data were processed

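Per the labels' processing notes, the tools were Trimmomatic 0.36, STAR 2.5.2b and featureCounts of Subread 1.5.0p3, with GRCm38.p5, and the authors deposited whole-number counts per gene, neither normalized nor filtered. The gene annotation and strand setting are not given in the sources used here. The labels name a TruSeq kit with 100 ng of RNA, the methods pre-amplification of 1 ng with SMARTer and NexteraXT. The interval of the pooled Ccne1 ratio and the floors cover counting error only.

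The counts were fitted with edgeR 4.0.16 in R 4.3.3 (expression filter, TMM, robust quasi-likelihood test, Benjamini-Hochberg adjustment over all genes tested), the 8 libraries of each comparison alone and all 16 for the interaction. Calls needed an adjusted p under 0.05 and, except for the interaction, an absolute log2 fold change over 1. CPM used TMM sizes over all 16 libraries, and log2 CPM a prior count of 2. The SE was the log2 fold change over the root of F, and 95% intervals of log2 fold changes, which cover the spread between libraries, used the t quantile at the test's degrees of freedom. The scripts were tested on simulated data. Coordinates and exon lengths are from GENCODE M21 of GRCm38. The members and lists were chosen with earlier results of these data known. Named were the members, per list up to 6 genes by adjusted p in MRL plus Cdk4, Cdk6, Mki67 and Pcna, and the 5 genes most like each of 2 patterns. Alternatives were DESeq2 1.42.0, other factors and filters, 1 fit over all libraries, a replicate block and leaving out each library. Those without the library labelled C57 uninjured replicate 4 in DESeq2, and without both libraries labelled uninjured replicate 4, were chosen after seeing the data.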

Additional observations from a re-analysis of the deposited data

Results flagged for a closer look

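Of 40 sets of 4 libraries, 10 members in 4 groups, 2 held a library far from the other 3 in log2 CPM, where the gap to the nearest library, as a share of the whole range, passed Dixon's critical value. Chance alone gives about 1 in 20. Cdk2 was lowest in the library labelled C57 uninjured replicate 4, at 13.4 CPM, and the gap was 0.897 of the range. That library also held the epidermal markers, and the part of these in the value of Cdk2 was not tested. Ccne1 was highest in MRL uninjured replicate 1, at 0.199 CPM or 3 counts against 0 in the other 3 libraries, so the gap was 1.0 of the range. This lies at the floor of 3 counts. The 4 S and G2/M members, whose values in C57 uninjured replicate 4 were far above the other 3 in CPM, were spread too widely among those 3 on the log2 scale to be marked in this way.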

How the results depend on the processing

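In MRL, 8 members were called under each alternative tried, and 0 in the interaction and between uninjured tendons. The 1 call in C57 became 0 with upper-quartile factors and with no filter, and 0 to 5 when 1 library was left out. With DESeq2 on the 7 libraries without the one labelled C57 uninjured replicate 4 it was 8. The 1 call between the injured strains became 0 with total counts, with no filter and with all 16 libraries in 1 fit, and ranged from 0 to 1 with 1 library left out. The cause was not tested. Over all genes, DESeq2 called 911 in C57 and 1818 in MRL in place of 155 and 1057, 1488 in place of 502 between the injured strains, and 198 and 104 in place of 0 in the interaction and between uninjured tendons, and leaving out 1 library gave 10 to 750 in C57.

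Signs turned only for estimates near 0 or set by the library labelled C57 uninjured replicate 4. With 1 library left out, C57 injury ranged from -0.14 to 0.18 for Ccnd3 and -0.092 to 0.34 for Cdk2 (log2 fold change), and were -0.093 and -0.044 with DESeq2 on those 7 libraries. The Ccnd2 interaction ranged from -0.0071 to 0.35. Between uninjured tendons the ranges were -1.18 to 0.39 for Ccnd1, -0.14 to 0.13 for Ccnd2, -0.11 to 0.41 for Ccne2, -0.12 to 0.21 for Cdk2, -3.05 to 0.91 for Ccna2 and -3.77 to 0.14 for Ccnb1. For Ccnd2 it was -0.0032 with DESeq2, -0.036 with total counts and -0.0026 with the replicate block, against 0.0030. Without both libraries labelled uninjured replicate 4 the differences were 0.72 for Ccnd1, -0.090 for Cdk2, 0.35 for Ccna2 and 0.38 for Ccnb1.

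Same-numbered uninjured libraries did not deviate together (correlations -0.24 to -0.03), but 4 such values are too few to tell whether the numbers pair them. Between uninjured tendons 0 members were called with and without the replicate block. No other comparison could be blocked, because the injured libraries carry no number. The S and G2/M minus G1 differences moved by less than 1 SD of their group under each alternative tried. Leaving out 1 of 4 libraries cannot move a mean by that much, and scaling factors nearly cancel within a library, so neither tests the difference. In uninjured C57, the mean moved from -3.75 to -4.76 without the library labelled replicate 4, and the SD from 2.07 to 0.49. Ccne1, and Cdk1 and the B-type cyclins before injury, are limited by depth.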
